A study of Mus musculus with 8 samples.

Results

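The genes described here encode 9 subunits of the Polycomb repressive complexes: Ezh1, Ezh2, Eed and Suz12 of Polycomb repressive complex 2 (PRC2), and Bmi1, Cbx2, Cbx7, Cbx8 and Rnf2 of Polycomb repressive complex 1 (PRC1). They were chosen by name, as every array probe whose accession a RefSeq table pairs with 1 of these symbols, which gave 12 probes out of 55681. All 9 passed the filter on dim probes and stood among 33619 genes and unnamed features tested. Signals were measured on 1-colour arrays in mesonephric tubules, the tubules of a transient embryonic kidney, microdissected from stained frozen sections of mouse embryos. There were 3 arrays of embryos labelled as p21 knockout (-/-) and 5 arrays of wild-type embryos, both of strain C57/BL6, and the design calls the p21-null tubules non-senescent and the wild-type tubules senescent. The labels give no embryonic stage and do not say whether the samples came from separate embryos, so the p-values cover the spread among these samples, which may be technical.

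PRC2 places the repressive methyl marks on lysine 27 of histone H3, with Ezh2 or Ezh1 as its catalytic subunit and Eed and Suz12 as the partners it needs. PRC1 binds that mark through a Cbx protein and adds ubiquitin to histone H2A through Rnf2, also called Ring1B, helped by a Pcgf protein such as Bmi1. In cell culture Ezh2 is known as an E2F-regulated gene of dividing cells and Ezh1 as the form that persists in resting cells, while Bmi1, Cbx7 and Cbx8 are known to hold down the Cdkn2a locus, whose products arrest the cell cycle in senescence.

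The targeted gene gave no check of the labels, since it was not clearly lower where it should be absent. Cdkn1a, which encodes p21, stood on its brighter probe at 2.11, 0.96 and 1.40 in the labelled p21-null arrays and at 2.49, 2.52, 0.44, 1.85 and 1.11 in the wild-type arrays. The groups overlapped, with a difference of −0.19 (standard error 0.54) on this probe and of −0.24 (standard error 0.36) on the other (limma adjusted p over all probes 0.953 and 0.892). These and all later values are log2 signals minus the 75th percentile of the same array. The position of the probe relative to the deleted part is unknown here, so the group is called labelled p21-null and every direction rests on that label. Of 16 markers of mesonephric tubule and duct, 13 were above background on all arrays, and 2 (Ret and Sim1) were not well above background on any labelled p21-null array. The share of probes well above background ran from 82.2% to 89.2% over the arrays, no spot was saturated, and mean local background was 94.1 to 138.2 for the arrays of slides 2 and 3, against 39.9 to 46.8 for those of slide 1, each of the 3 slides holding both groups. The number of arrays limits the precision.

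None of the 9 Polycomb genes changed by the test. With limma over all 33619 genes and features, 0 of the 9 had an adjusted p under 0.05, against 0 (0%) of all those tested, and 0 of the 9 had an unadjusted p under 0.05, against 10.1% of all. In 0 of the 9 did the groups fail to overlap, against 6.89% of all (4.43% with the labelled p21-null arrays above and 2.47% with them below). Of the 9, 5 had a positive and 4 a negative difference (labelled p21-null minus wild type), with a median of 0.26, beside 47.7% positive and a median of −0.03 over everything tested. In such bulk samples fewer cells of a type and less RNA per cell cannot be told apart. The median was 0.05 with labelled p21-null replicate 1 left out, and leaving out wild-type replicate 2 gave 0.12. The count of 0 under an unadjusted p of 0.05 rests on arrays that vary. It was 1 without labelled p21-null replicate 2 (Cbx2), 1 without wild-type replicate 2 (Bmi1) and 1 without wild-type replicate 4 (Suz12). The share of everything tested was 11.3%, 8.96% and 10.6% in these settings. The count was 1 with slide as a fixed block (Cbx2), 0 with slide as a random block and 3 with array weights (Cbx2, Cbx8 and Suz12). There the share of everything tested was 10%, 10.4% and 19.3%. None of the 9 passed the adjusted threshold in any of these.

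**Figure D1:**
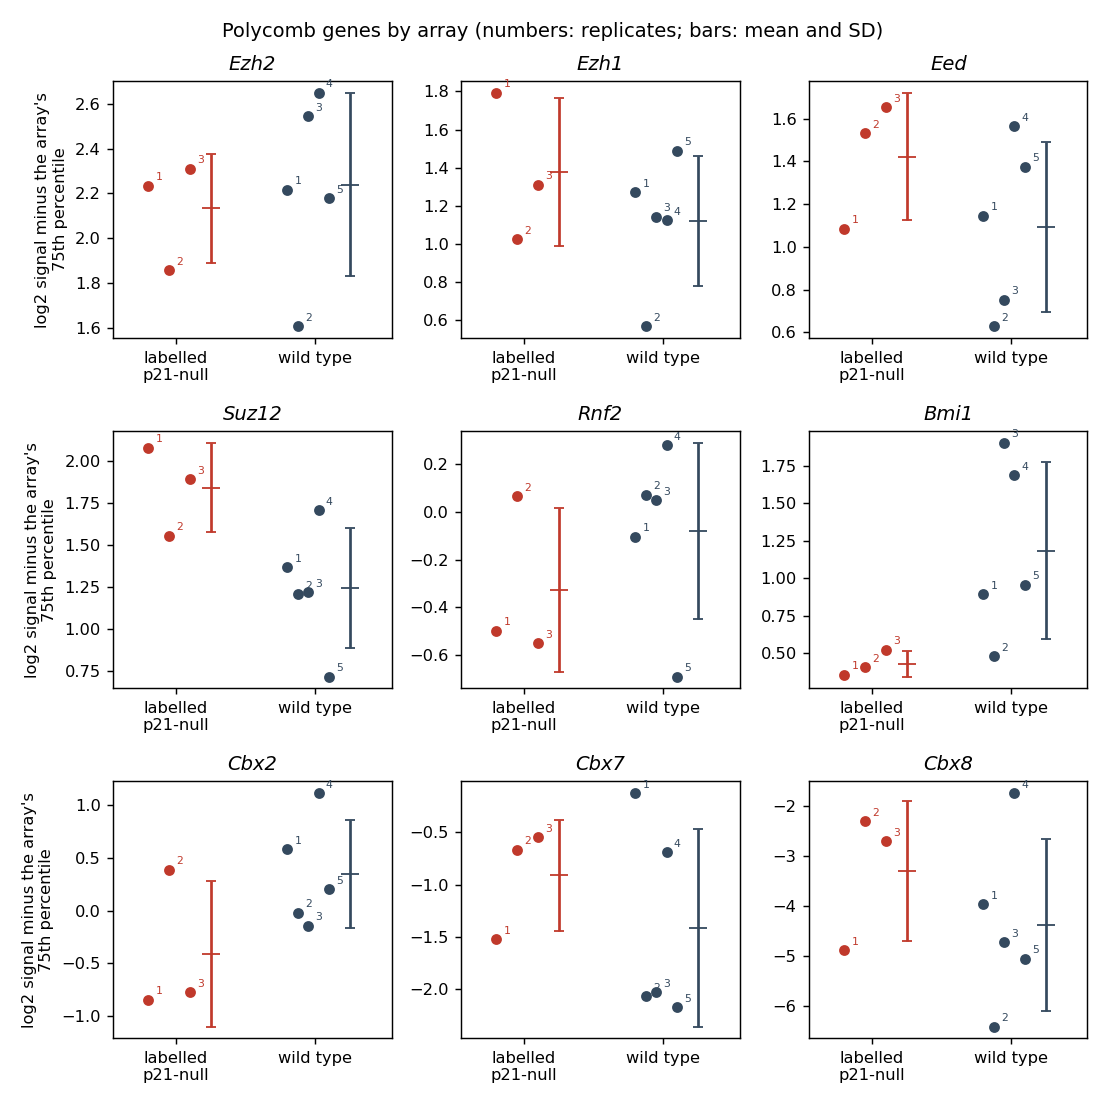
Log2 signal minus the 75th percentile of each array (y axis, its own range in each panel) for the 9 Polycomb genes, with the 3 labelled p21-null arrays at left and the 5 wild-type arrays at right; points are arrays numbered by replicate, and bars show the mean and SD. In every panel the groups overlap, for Bmi1 only through wild-type replicate 2 at 0.48.

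Ezh2, the catalytic subunit linked to dividing cells, was close to level between the groups. It stood at 2.23, 1.86 and 2.31 in labelled p21-null replicates 1 to 3 and at 2.22, 1.61, 2.55, 2.65 and 2.18 in wild-type replicates 1 to 5. The labelled p21-null values all fell inside the wild-type range, whose highest arrays were replicates 3 and 4 and whose lowest was replicate 2. Labelled p21-null arrays averaged 2.13 ± 0.24 (SD, n = 3) and wild-type arrays 2.24 ± 0.41 (SD, n = 5), and the log2 difference was −0.11 (standard error 0.32, limma adjusted p = 0.954). The 95% confidence interval ran from −0.83 to 0.62, so a fall of as much as 0.83 or a rise of as much as 0.62 was not resolved by these arrays. The sign was positive with labelled p21-null replicate 2 left out (0.03), and the within-slide differences were 0.11, −0.79 and 0.13 on slides 1, 2 and 3.

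The promoters of the catalytic subunits Ezh2 and Ezh1, and of Suz12 as the other member with a match, are shown because E2F factors, which drive S-phase genes, are the textbook link between Ezh2 and cell division. Capitals mark the E2F motif, searched as TTTCCCGC, TTTCGCGC, TTTGCCGC or TTTGGCGC on both strands of the 250 bases before and 50 after the start in RefSeq's GRCm38.p6 table, each printed 5′ to 3′ along the gene.
Ezh2 promoter, chr6:47594981-47595280, minus strand: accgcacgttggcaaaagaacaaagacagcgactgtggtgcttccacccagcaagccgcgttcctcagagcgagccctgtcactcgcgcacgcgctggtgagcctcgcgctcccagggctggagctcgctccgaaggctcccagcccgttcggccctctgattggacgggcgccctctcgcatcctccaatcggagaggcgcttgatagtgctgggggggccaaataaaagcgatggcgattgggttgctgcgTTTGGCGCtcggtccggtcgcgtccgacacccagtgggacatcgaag
Suz12 promoter, chr11:79992856-79993155, plus strand: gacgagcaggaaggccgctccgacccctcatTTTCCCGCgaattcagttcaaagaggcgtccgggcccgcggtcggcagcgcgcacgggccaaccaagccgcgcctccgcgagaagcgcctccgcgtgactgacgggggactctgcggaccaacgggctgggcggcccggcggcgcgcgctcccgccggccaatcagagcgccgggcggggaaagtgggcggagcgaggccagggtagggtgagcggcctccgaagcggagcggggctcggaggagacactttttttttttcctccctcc
Ezh1 promoter, chr11:101226414-101226713, minus strand: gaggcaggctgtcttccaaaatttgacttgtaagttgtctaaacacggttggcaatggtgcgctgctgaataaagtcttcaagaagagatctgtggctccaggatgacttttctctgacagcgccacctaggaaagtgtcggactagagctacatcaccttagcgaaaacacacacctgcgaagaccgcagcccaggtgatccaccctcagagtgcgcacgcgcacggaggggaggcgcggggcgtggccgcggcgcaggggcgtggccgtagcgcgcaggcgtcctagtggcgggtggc
Ezh2 had 1 match, beginning at base 254 of the window, Suz12 had 1, beginning at base 32, and Ezh1 and Eed had none. Of 8 members with an entry 2 held the motif, which 2.26% of all 32851 promoters in the table and 6 of 25 proliferation genes with an entry did. Members and proliferation genes were counted by gene and the whole table by promoter, measured here or not. These shares are therefore unlike, and enrichment was not tested. A match is a string of letters and not a measured site.

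Ezh1, the other catalytic subunit, was read by 3 probes that gave unlike sizes of difference. On probe 2, the brightest and the one that stands for the gene, it had 1.79, 1.03 and 1.31 in labelled p21-null arrays and 1.27, 0.57, 1.14, 1.12 and 1.49 in wild-type arrays. Labelled p21-null replicate 1 was the highest array and wild-type replicate 2 the lowest, with the rest intermingled. The difference was 0.26 (standard error 0.32, 95% confidence interval −0.46 to 0.98, limma adjusted p = 0.864). It was 0.80, −0.10 and −0.18 within slides 1, 2 and 3, so only slide 1 had the positive sign.

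On Ezh1 probe 1, a dimmer probe of the same transcript accession, the groups did not overlap. It had −0.72, −0.74 and −1.03 in labelled p21-null arrays and −1.79, −1.94, −3.22, −2.84 and −1.44 in wild-type arrays, all of them well above background. The 3 labelled p21-null arrays lay close together above the whole wild-type range. The difference was 1.42 (standard error 0.45, limma unadjusted p = 0.0114, adjusted p = 0.370 over 50046 probes). A difference in that direction at an unadjusted p under 0.05 was found for 5.92% of all probes, and groups apart in that direction for 4.35%. Over 14 alternatives (scalings, background correction, the deposited table, slide and replicate blocks, each array left out), chosen after its values were seen, it was 1.17 without wild-type replicate 3 to 1.62 without wild-type replicate 5.

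Probe 3 of Ezh1 gave a difference near that of probe 2. It had 0.96, 0.58 and 1.14 in labelled p21-null arrays and 0.91, 0.61, 0.05, 0.64 and 1.13 in wild-type arrays, a difference of 0.23 (standard error 0.33). The sources used here do not place these probes on the transcript, and why probe 1 differed was not tested.

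**Figure D2:**
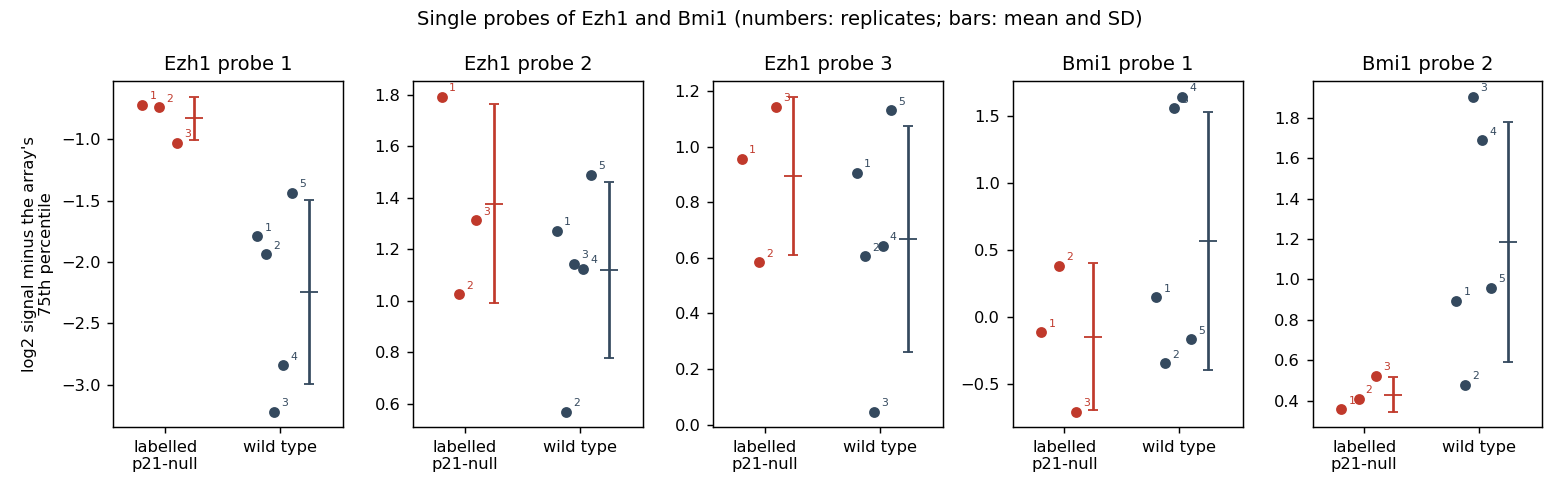
Log2 signal minus the 75th percentile of each array (y axis, its own range in each panel) for the 3 probes of Ezh1 and the 2 probes of Bmi1, labelled p21-null arrays at left and wild-type arrays at right, with replicate numbers and bars of mean and SD. On Ezh1 probe 1 every labelled p21-null array is above −1.04 and every wild-type array below −1.43, while the groups overlap on the other 4 probes.

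Set against each other within each array, Ezh2 and Ezh1 were not shown by the test to change unequally. Ezh2 minus Ezh1 was 0.44, 0.83 and 0.999 in labelled p21-null arrays and 0.94, 1.04, 1.40, 1.53 and 0.69 in wild-type arrays. The groups overlapped, since labelled p21-null replicate 3 was above wild-type replicates 1 and 5. The difference of −0.36 had a two-sided exact permutation p of 0.179 over all 56 splits of the arrays, whose smallest possible p is 0.0179 (0.357 after adjustment over the 2 such comparisons). Within slides 1, 2 and 3 the difference was −0.69, −0.70 and 0.31, so its sign was not the same on every slide. With Ezh1 probe 1 in place of probe 2 the difference over all arrays was −1.52 (exact permutation p = 0.0893). Ezh2 minus Cbx7 was 3.75, 2.52 and 2.86 in labelled p21-null arrays and 2.34, 3.67, 4.58, 3.34 and 4.35 in wild-type arrays, a difference of −0.61 (exact permutation p = 0.357, 0.357 adjusted). This difference was 0.23, −0.82 and −1.50 within slides 1, 2 and 3.

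The proliferation genes, with which Ezh2 is often counted, had higher mean signals in the labelled p21-null arrays. Of 30 such genes 30 had a positive difference, beside 47.7% of everything tested, and 12 had an unadjusted p under 0.05 on the higher side, a call made for 6.2% of all, while 0 passed the adjusted threshold. The list was chosen with earlier results of these data known, so these counts are a description only. Cdc6, which loads the replicative helicase, differed by 1.62, Cdc45, a part of that helicase, by 1.20, and Mki67, the proliferation marker Ki-67, by 1.12. The mean of the 30 was 2.03, 1.57 and 2.16 in labelled p21-null arrays and 1.36, 1.04, 0.76, 1.26 and 1.40 in wild-type arrays. Every labelled p21-null array lay above every wild-type array. The number past an unadjusted p of 0.05 was 5 without labelled p21-null replicate 3 and 19 with array weights. In either direction, 5.21% and 19.3% of everything tested passed in those settings. All 30 stayed positive except without labelled p21-null replicate 1, when 29 did.

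Ezh2 lay lower relative to these genes in the labelled p21-null arrays. Ezh2 minus the proliferation mean was 0.20, 0.29 and 0.15 in labelled p21-null arrays and 0.86, 0.57, 1.78, 1.39 and 0.78 in wild-type arrays. The groups did not overlap, and each labelled p21-null value was below the lowest wild-type value, that of replicate 2. The difference was −0.86, and −0.87, −1.10 and −0.64 within slides 1, 2 and 3. The two-sided exact permutation p was 0.0536, above the threshold of 0.05, and it was 0.0286 without wild-type replicate 2. This contrast was chosen after the values of both had been seen. The proliferation mean itself differed by 0.76 and Ezh2 by −0.11, so most of the contrast was the shift of the list. How many other genes would separate when set against the same mean was not tested.

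Across the 8 arrays the level of Ezh2 went with the proliferation mean hardly at all, with a Pearson r of −0.02 (exact permutation p = 0.971) and a Spearman rho of −0.07 (exact permutation p = 0.882). Of the 9 genes Suz12 had an r of 0.67 and Bmi1 an r of −0.67, with exact permutation p-values of 0.0701 and 0.0678, and each adjusted to 0.209 over the 9. Rnf2 had an r of −0.63 and Eed an r of 0.61 (exact permutation p = 0.0985 and 0.111). Ezh1 had an r of 0.59 and a rho of 0.57 (exact permutation p = 0.116 and 0.151). None of the 9 relations passed after adjustment. Since the groups did not overlap on the proliferation mean, r was also taken with each group centred on its own mean, and was then 0.22 for Ezh2, 0.55 for Ezh1, 0.18 for Suz12 and −0.29 for Bmi1. Without labelled p21-null replicates 1 and 3, the arrays farthest from the median proliferation mean, r was −0.26 for Ezh2, 0.33 for Ezh1, 0.14 for Suz12 and −0.58 for Bmi1. The r of Suz12 was thus lower both without those arrays and with the groups centred. With each slide centred, r was −0.07 for Ezh2, 0.56 for Ezh1, 0.87 for Suz12 and −0.69 for Bmi1. Single slides hold too few arrays for a value of their own. For Eed r was 0.48 with groups centred, 0.81 without those arrays and 0.75 with slides centred. For Rnf2 it was −0.65, −0.27 and −0.72 in the same order.

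**Figure D3:**
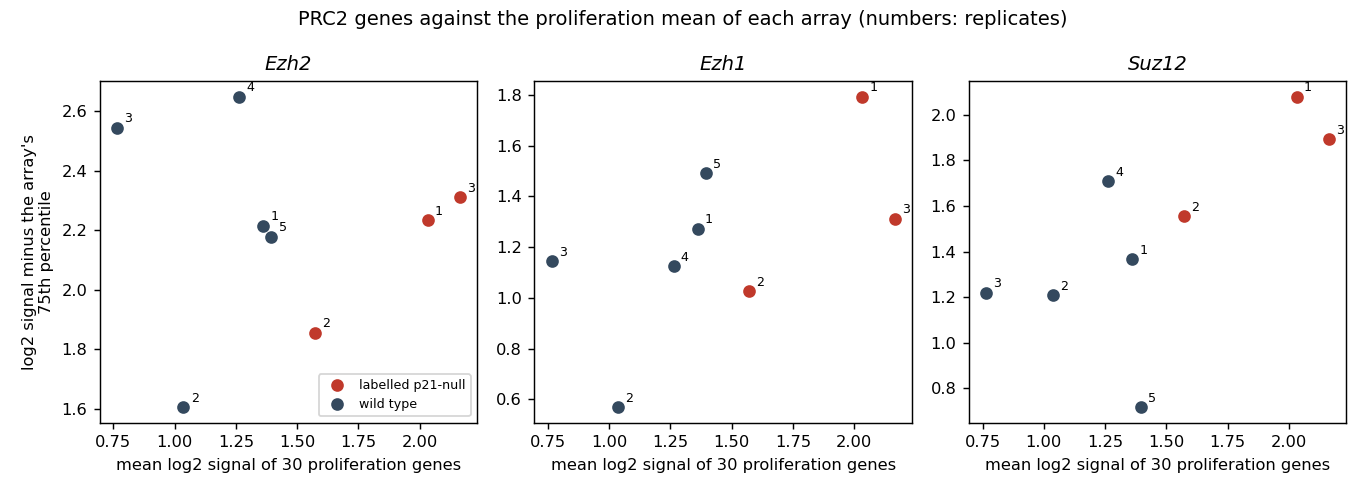
Log2 signal of Ezh2, Ezh1 and Suz12 (y axis, minus the 75th percentile of the array) against the mean log2 signal of 30 proliferation genes (x axis), 1 point per array numbered by replicate, labelled p21-null and wild type in separate colours. The labelled p21-null arrays lie furthest right, at 1.57 to 2.16, and their Ezh2 values of 1.86 to 2.31 stay within the wild-type range.

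Suz12 and Eed, the partners of the catalytic subunits, had higher means in the labelled p21-null arrays, by less than the test could call. Suz12, which holds the complex together, had 2.08, 1.55 and 1.89 in labelled p21-null arrays and 1.37, 1.21, 1.22, 1.71 and 0.72 in wild-type arrays. Only wild-type replicate 4 reached into the labelled p21-null range, and replicate 5 was lowest. The difference of 0.60 had a standard error of 0.31 and a 95% confidence interval of −0.10 to 1.29 (limma adjusted p = 0.575), and it was 0.82, −0.15 and 1.18 within slides 1, 2 and 3. Eed, which reads the methyl mark and stimulates the enzyme, had 1.08, 1.53 and 1.65 in labelled p21-null arrays and 1.15, 0.63, 0.75, 1.56 and 1.37 in wild-type arrays, with a difference of 0.33 (standard error 0.32, limma adjusted p = 0.814).

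Among 8 other PRC2 subunits, core and accessory, 3 had a positive difference, against 47.7% of everything tested. Of these 8, 0 passed an unadjusted p of 0.05, against 10.1%. The median was −0.03, the same as over everything tested. Phf1, a Polycomb-like protein, had −1.67, −2.03 and −1.73 in labelled p21-null arrays and −2.46, −2.17, −3.29, −2.08 and −2.41 in wild-type arrays. These groups were apart by a small step, between labelled p21-null replicate 2 and wild-type replicate 4 (difference 0.67, standard error 0.34, limma adjusted p = 0.564). Phf1 was the 1 of the 8 with groups apart, and 4.43% of everything tested were apart in that direction. Epop, which dampens PRC2 activity at its targets, differed by −0.68 (standard error 0.43).

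In PRC1, Bmi1 on the brighter of its probes was tightly grouped in the labelled p21-null arrays and widely spread in wild type. Its brighter probe, probe 2, had 0.36, 0.41 and 0.52 in labelled p21-null arrays and 0.89, 0.48, 1.90, 1.69 and 0.96 in wild-type arrays. Labelled p21-null replicate 3 and wild-type replicate 2 were the only arrays to cross. Labelled p21-null arrays averaged 0.43 ± 0.08 (SD, n = 3) and wild-type arrays 1.19 ± 0.59 (SD, n = 5). The difference was −0.76 (standard error 0.37, 95% confidence interval −1.60 to 0.09, limma adjusted p = 0.557). It was −0.73, −1.28 and −0.44 within slides 1, 2 and 3.

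Probe 1 of Bmi1 gave −0.12, 0.38 and −0.71 in labelled p21-null arrays and 0.14, −0.35, 1.56, 1.64 and −0.17 in wild-type arrays, a difference of −0.71 (standard error 0.56). The labelled p21-null arrays were not tightly grouped on this probe, with an SD of 0.55. On both probes wild-type replicates 3 and 4 were the 2 highest arrays. The same 2 arrays were the highest of all for Ezh2 and for the mean of 17 neural markers, which was −1.76, −0.998 and −2.16 in labelled p21-null arrays and −1.07, −0.17, 0.73, 0.83 and −0.14 in wild-type arrays. The part of neural tissue in the Bmi1 and Ezh2 values was not tested.

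Cbx2, Cbx7 and Cbx8 are alternative chromodomain subunits that bind the methyl mark, and they had differences of both signs. Cbx2 had −0.84, 0.39 and −0.77 in labelled p21-null arrays and 0.58, −0.02, −0.14, 1.12 and 0.20 in wild-type arrays. Labelled p21-null replicates 1 and 3 lay below all wild-type arrays and replicate 2 above 3 of them. The difference of −0.76 had a standard error of 0.42 and a 95% confidence interval of −1.70 to 0.19 (limma adjusted p = 0.611), and it was −0.99, −0.73 and −0.97 within the slides. It was −1.16 without labelled p21-null replicate 2.

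Cbx7, the subunit known for extending the lifespan of cultured cells, fell into 2 levels within wild type. It had −1.52, −0.67 and −0.54 in labelled p21-null arrays and −0.12, −2.07, −2.03, −0.69 and −2.17 in wild-type arrays. Wild-type replicate 1 was the highest array and replicate 4 lay among the labelled p21-null arrays, while replicates 2, 3 and 5 were below all others. The difference was 0.51 (standard error 0.55, 95% confidence interval −0.74 to 1.75, limma adjusted p = 0.837), and it was −0.11, 0.02 and 1.63 within slides 1, 2 and 3. Cbx8 was the dimmest of the members, with −4.89, −2.30 and −2.70 in labelled p21-null arrays and −3.96, −6.41, −4.72, −1.73 and −5.05 in wild-type arrays, 4 of which were above background. Its difference of 1.08 had a standard error of 0.996 and a 95% confidence interval of −1.17 to 3.33, the widest of the 9. Single arrays moved it: leaving out labelled p21-null replicate 1 or 2 gave 1.88 and 0.58, and leaving out wild-type replicate 2 or 4 gave 0.57 and 1.74. With normexp background correction it was 0.60.

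Cbx2 and Cbx8 are neighbours on chromosome 11 in the RefSeq table. Their differences of −0.76 and 1.08 did not share a sign, and neither passed the test. Rnf2, the ubiquitin ligase, had −0.50, 0.07 and −0.55 in labelled p21-null arrays and −0.10, 0.07, 0.05, 0.28 and −0.69 in wild-type arrays. The groups overlapped throughout, with a difference of −0.25 (standard error 0.32, limma adjusted p = 0.873).

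Of 17 other PRC1 subunits 11 had a negative difference, with a median of −0.29 against −0.03 over everything tested. By an unadjusted p under 0.05, 1 was higher and 2 were lower, where 6.2% and 3.91% of all were, and 0 passed the adjusted threshold. Pcgf5, a paralogue of Bmi1 in variant PRC1, had 2.02, 1.20 and 2.002 in labelled p21-null arrays and 0.90, −0.61, −0.34, 0.70 and 0.59 in wild-type arrays. Every labelled p21-null array was above every wild-type array, as for 4.43% of everything tested (difference 1.49, standard error 0.44, limma unadjusted p = 0.00766, adjusted p = 0.318).

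The 2 on the lower side were a paralogue of Bmi1 and a Cbx protein. Pcgf2, also called Mel18, had −0.25, 0.61 and −0.95 in labelled p21-null arrays and 1.12, 0.87, 1.41, 1.32 and 0.01 in wild-type arrays, a difference of −1.14 (standard error 0.45, limma unadjusted p = 0.0329, adjusted p = 0.442). Wild-type replicate 5 lay among the labelled p21-null arrays. Cbx6 had 2.45, 2.72 and 2.08 in labelled p21-null arrays and 3.44, 3.02, 3.14, 2.9996 and 3.05 in wild-type arrays, with no overlap (difference −0.71, standard error 0.28, limma unadjusted p = 0.0295, adjusted p = 0.426). Groups apart in that direction were found for 2.47% of everything tested. The number of lower calls was 0 without labelled p21-null replicate 1, labelled p21-null replicate 3 or wild-type replicate 1, 1 without wild-type replicate 2, 3 or 4, and 3 without wild-type replicate 5. It was 4 when labelled p21-null replicate 2 was left out. The number of higher calls was 2 without wild-type replicate 2. In either direction, 7.03%, 11.3% and 5.21% of everything tested passed without labelled p21-null replicate 1, 2 or 3. Without single wild-type arrays 8.96% to 11.1% did.

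**Figure D4:**
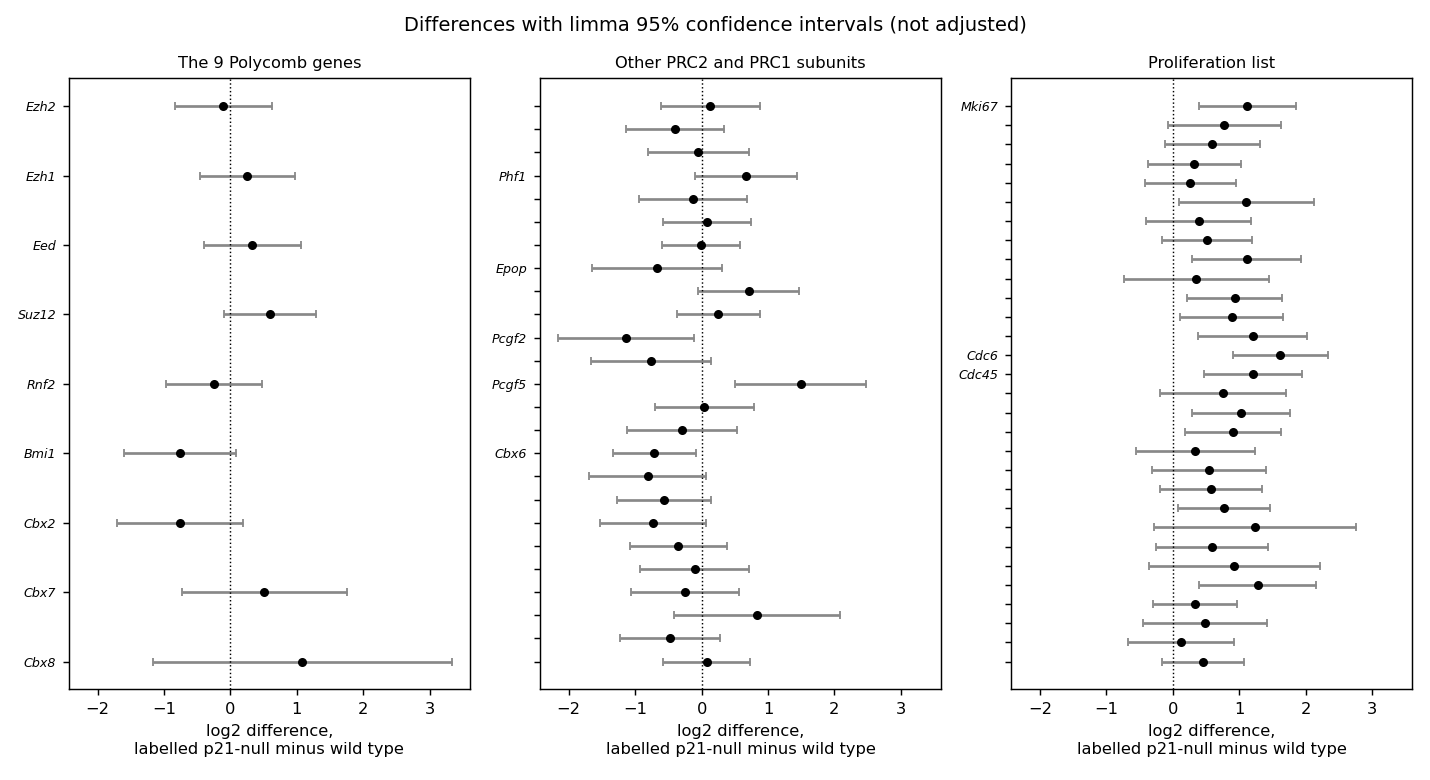
Log2 differences, labelled p21-null minus wild type (x axis), with 95% confidence intervals from limma, not adjusted for the number of genes, for the 9 Polycomb genes, 25 other PRC2 and PRC1 subunits and 30 proliferation genes (y axis, 1 line per gene, with a label for genes named in the text). All 9 intervals in the left panel cross 0, those of Pcgf5, Pcgf2 and Cbx6 in the middle panel do not, and all 30 points in the right panel lie above 0.

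Enzymes that take Polycomb marks away, listed together with cofactors, were split evenly. Of 6 measured, 3 had a positive difference, against 47.7% of everything tested, and 0 passed an unadjusted p of 0.05, against 10.1%. Kdm6a and Kdm6b, which remove the methyl marks of PRC2, differed by 0.66 (standard error 0.44) and by −0.48 (standard error 0.33).

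Known targets of Polycomb repression, mostly developmental transcription factors, were measured for 25 of 26 genes, of which 13 were above background on all 8 arrays. Of these 13, 2 had a positive difference, the median was −1.28 against −0.03 over everything tested, and 1 (Nkx2-2) had an unadjusted p under 0.05 on the lower side, where 3.91% of all did. The other 12 were near background on some arrays, and some of them, such as Isl1, entered the test mainly through the wild-type arrays. Over all 25 that entered, given as a description only, 5 had a positive difference, the median was −1.03, 2 had an unadjusted p under 0.05 on the lower side and 0 passed the adjusted threshold. The number of lower calls among the 25 moved with the array left out. Leaving out labelled p21-null replicate 1, 2 or 3 gave 0, 4 and 1 such calls, and leaving out wild-type replicate 1, 2, 3, 4 or 5 gave 5, 1, 1, 0 and 0. The share of everything tested that passed in either direction moved too. It was 7.03%, 11.3% and 5.21% without labelled p21-null replicate 1, 2 or 3, and 8.96% to 11.1% without single wild-type arrays. The median of the 25 was −0.65 with normexp background correction and −0.65 in the deposited table. Isl1, of motor neurons and heart, had −8.27, −4.85 and −8.04 in labelled p21-null arrays and −7.28, −4.05, −0.97, −1.02 and −4.07 in wild-type arrays, and was well above background on 1 of 3 labelled p21-null and 4 of 5 wild-type arrays. Nkx2-2, of ventral neural tube, had −3.94, −4.89 and −3.28 in labelled p21-null arrays and −3.73, −2.65, −3.32, −1.25 and −0.79 in wild-type arrays. The groups overlapped for both.

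Of 17 neural markers 16 had a negative difference, where 47.7% of everything tested had a positive one. On the lower side 4 had an unadjusted p under 0.05, where 3.91% of all did. The list means were −2.16 to −0.998 in labelled p21-null arrays and −1.07 to 0.83 in wild-type arrays. Their part in the values of the targets was not tested. Cdkn2a, the senescence locus repressed by Polycomb and named here for that role and not by the rule, had −8.27, −4.30 and −4.42 in labelled p21-null arrays and −1.90, −6.92, −7.03, −4.36 and −6.13 in wild-type arrays. It was well above background on 2 of 3 labelled p21-null and 2 of 5 wild-type arrays, and labelled p21-null replicate 1 was the lowest and wild-type replicate 1 the highest array.

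Marker lists of other cell types differed in how far their means lay apart between the groups, and no marker passed the adjusted threshold. These lists and that of neural markers were chosen with earlier results of these data known, so their counts are a description only. Over everything tested, 47.7% had a positive difference. By an unadjusted p under 0.05, 6.2% of all were higher and 3.91% lower. Liver markers had a positive difference for 18 of 18 (17 with an unadjusted p under 0.05), with list means of 2.90 to 4.27 in labelled p21-null arrays and −0.67 to 3.07 in wild-type arrays. Erythroid markers did for 16 of 19 (13 higher by that p), with 3.26 to 4.05 in labelled p21-null arrays and 0.91 to 3.17 in wild-type arrays, and macrophage markers for 15 of 19 (11 higher), with 0.61 to 1.28 in labelled p21-null arrays and −0.68 to 0.81 in wild-type arrays. Stroma markers did for 3 of 15 (1 lower), with 0.40 to 0.78 in labelled p21-null arrays, inside the range of 0.33 to 1.84 in wild-type arrays. Gonad markers did for 7 of 12 (1 higher and 3 lower), with −2.76 to −1.84 in labelled p21-null arrays and −2.78 to −1.21 in wild-type arrays, and tubule and duct markers for 4 of 16 (3 lower), with −2.54 to −1.77 in labelled p21-null arrays and −2.51 to −0.02 in wild-type arrays. All liver, erythroid and macrophage markers measured were above background on all arrays. Their part in the Polycomb and proliferation values was not tested.

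The genes with the pattern most like Ezh2 over the 8 arrays were Kcnmb2, Tex9 and Vamp7, with Pearson r of 0.978, 0.964 and 0.956 among 18039 genes with a symbol. For Ezh1 they were Kdm6a, Lrrc47 and Lactb2 (0.972, 0.972 and 0.962), and for Cbx7 they were Zfp575, Lce3c and Avpr2 (0.968, 0.957 and 0.956). An r over 0.9 was shared by 20, 33 and 20 genes for Ezh2, Ezh1 and Cbx7. With so few arrays and so many genes these ranks are a description of these arrays only.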

How the data were processed

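The deposited scanner files hold linear spot intensities, written by Agilent Feature Extraction 10.7.3.1 per the file headers, with a processed intensity that is background-corrected. The authors' deposited series table holds log2 values, and the submitters' processing notes name limma. Against the scanner values its columns, each with a median near 9.26, correlated at 0.99996 or higher with quantile-normalized normexp values, which settles scale and direction.

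Each array's 75th percentile was subtracted from its log2 processed intensities. Outlier spots were left out, spots of a probe averaged, and 50046 probes kept that exceeded background clearly on 3 or more of the 8 arrays. Accessions were matched to RefSeq of GRCm38.p6, which named 26056 probes. The probe of highest mean stood for a gene. The group difference was fitted by limma 3.58.1 under R 4.3.3 (lmFit, eBayes, 3 against 5 arrays), adjusted by Benjamini-Hochberg over 33619 genes and features, and checked on simulated data. Slides were read from barcodes in the file names.

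The 9 genes and all lists were chosen with earlier results of these data known. Genes were named by rule: all members, Cdkn1a, listed Polycomb genes and targets with an unadjusted p under 0.05 (otherwise the 2 of smallest p), the 3 proliferation genes of smallest p, and the 3 genes most like Ezh2, Ezh1 and Cbx7. Alternatives were other scalings, normexp with an offset of 50 (on median spot and background intensities), filters, slide and replicate blocks, probe rules, moderation, array weights, the deposited table and leaving out each array. Replicate numbers did not pair the arrays.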

Additional observations from a re-analysis of the deposited data

How the results depend on the processing

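Of 323 values recomputed, 314 kept their side of the threshold and any direction they had, which is a weak check. For genes that threshold was an adjusted p under 0.05, which 0 of 33619 passed in the main fit, so few could change side. Some values repeat the main one by construction, such as single-probe genes under other probe rules. Counts that stayed at 0, which have no direction, make up 16 of the 314. The log2 difference of Ezh2 turned positive with array weights (0.11), on replicates 1 to 3 with the replicate block (0.0116) and without labelled p21-null replicate 2 (0.0335), and ran from −0.26 to that value over the left-out arrays; the cause was not tested. The other 8 genes kept their sign under all 21 alternatives in which they were measured, Ezh1 between 0.05 and 0.63, Cbx7 between 0.32 and 0.83, Suz12 between 0.47 and 0.74, Eed between 0.17 and 0.58, Bmi1 between −0.93 and −0.54, Cbx2 between −1.16 and −0.54, Cbx8 between 0.57 and 1.88, and Rnf2 between −0.44 and −0.14. Cbx8 could not be measured where all 8 arrays had to be above background. Within single slides only Bmi1 and Cbx2 of the 9 kept the same sign. On slides 1, 2 and 3 Eed had 0.24, −0.03 and 0.28, Cbx8 had 0.15, −0.57 and 2.35, and Rnf2 had −0.50, −0.21 and 0.14. The number of the 9 past an unadjusted p of 0.05, 0 in the main comparison, was 1 with slide as a fixed block and 0 with slide as a random block. It was 3 with array weights and 0 to 1 over the left-out arrays. With array weights 19.3% of everything tested passed that p, against 10.1% in the main comparison. Array weights put 4.019 on labelled p21-null replicate 3 and 0.52 to 1.33 on the others. Ezh2 minus Ezh1 ran from −1.52 (with Ezh1 probe 1) to −0.20 and Ezh2 minus Cbx7 from −0.97 to −0.35, without passing. Within single slides each of these contrasts took positive and negative values. Ezh2 minus the proliferation mean ran from −0.99 to −0.69 over the left-out arrays and passed only at the lower end. With the replicate block no Polycomb gene passed the adjusted threshold, and the median of the 25 known targets was −0.44; same-numbered arrays deviated with correlations of 0.0645, −0.0841 and −0.0739, and no array matched its own number best. The alternatives on single probes, on Ezh1 probes and on the proliferation mean were chosen after seeing the data. Probes near background and the number of arrays limit precision, most for Cbx8.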
